A study of Arabidopsis thaliana with 2 samples.

Results

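The ethylene pathway and ERF family was represented here by 3 genes, EIN3, RTE1 and PUCHI, each read by 1 probe set, out of 13356 genes with a probe set of their own and 22746 plant probe sets in all. Members were the probe sets that the platform's gene table assigns to a single gene whose symbol is a name of ethylene synthesis (ACS, ACO), of ethylene perception and signalling (ETR, ERS, EIN, EIL, EBF, RTE, RTH) or of the ERF, CRF and RAP2 transcription factors followed by its number, or is PUCHI. The rule uses names and no measured value, but it was written with earlier results of these data known. The reference gene table holds 74 genes whose symbol fits the rule, and the other members of these families, among them all receptors, both families of synthesis enzymes and every gene named ERF, CRF or RAP2, were not analysed here. EIN3 and RTE1 are ethylene genes, and PUCHI was the only member that belongs to the AP2/ERF transcription factor family, so the label covers a small piece of the pathway.

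Root pericycle cells of Arabidopsis thaliana (ecotype Columbia) were isolated from protoplasted seedling roots by fluorescence sorting of the GFP reporter line J2661, with 1 column of array values per condition. Both groups carried the same reporter and grew for 6 days on standard medium. For the final 24 h the first group was kept on medium with iron, and the second on medium in which ferrozine, an iron chelator, at 0.3 mM took the place of the iron salt. Seedlings were 7 days old. The question was how the pericycle responds to a day without iron. The labels mention 3 biological replicates per line, and the 2 columns available both carry the label replicate 1. Each column is taken here as 1 array, although it may summarise several. With 1 column per condition no spread between replicates could be measured and no test was run. Every "higher" or "lower" refers to these 2 columns alone.

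Ethylene is a gaseous plant hormone sensed by membrane receptors that, in the absence of the gas, keep the pathway switched off. Binding of ethylene releases the membrane protein EIN2, which stabilises EIN3, the transcription factor at the end of the linear pathway, and EIN3 in turn activates genes that include members of the ERF family. In roots, ethylene acts on elongation and root hair growth, and it is known as one of the hormones that take part in the response of dicot roots to low iron, where EIN3 protein has been linked to the iron regulator FIT. EIN3 is controlled to a large part by degradation of its protein, which an array does not measure.

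Without iron, the probe set of EIN3 read 2.04-fold higher, that of RTE1 1.44-fold higher and that of PUCHI 1.33-fold higher than with iron. Most bright probe sets were higher on that array, and relative to probe sets of like brightness the folds were 1.34 for EIN3, 0.958 for RTE1 and 1.02 for PUCHI. EIN3 was the member farthest above its surroundings, and the other 2 lay close to the middle of theirs.

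The scale of the values sets how these differences read. The deposited intensities are in arbitrary linear units, with a median over the plant probe sets of 0.852 with iron (range 0.484 to 62.8) and 0.866 without (range 0.329 to 83.5). To pass the filter on dim signal, a probe set needed its higher value to reach the median of all plant values, 0.858, and 11872 probe sets did so, the 3 members among them. Of these 11872, 10672 were higher without iron and 1200 lower, and the median log2 difference was 0.37. The control probe sets differed between the arrays as well. Without iron, each of the 9 hybridisation controls read higher (median difference 0.36), while each of the 27 controls for Bacillus transcripts read lower (median difference -0.42). Their part in the members' differences was not tested. For this reason 2 log2 differences are given for each gene. The raw difference uses the deposited values, and the trend-adjusted difference, which sets a gene against others of like brightness, has a smooth (lowess) curve of the difference on the mean log2 value subtracted.

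**Figure D1:**
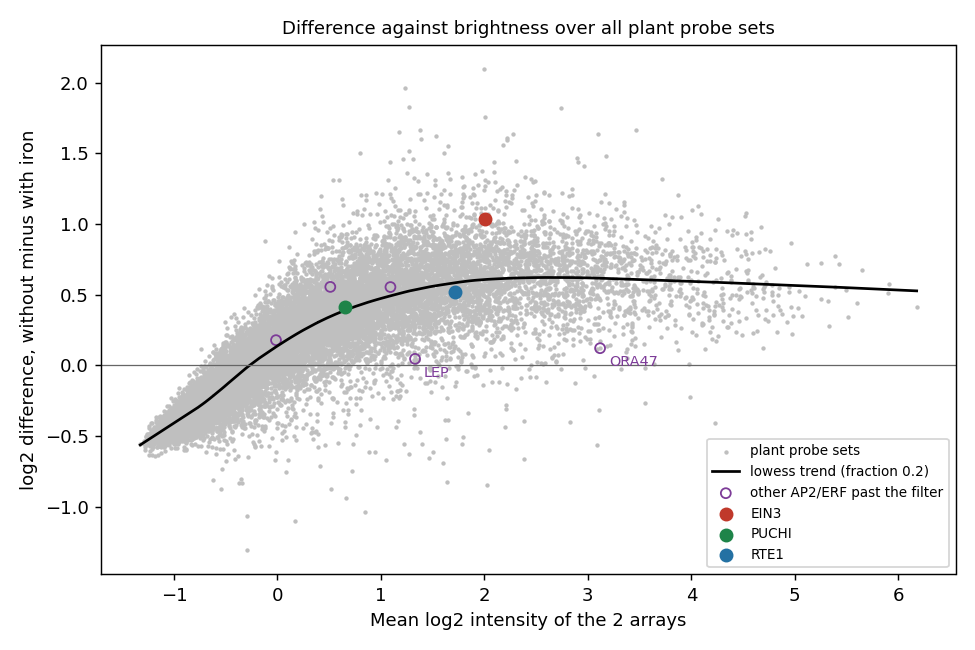
The log2 difference (without minus with iron, vertical axis) is plotted against the mean log2 intensity of the pair of arrays (horizontal axis) for the 22746 plant probe sets in grey, with the lowess trend as a black line. EIN3 (1.03) sits above the trend, RTE1 (0.52) and PUCHI (0.41) sit near it, and among the open circles, which mark other AP2/ERF genes past the filter, ORA47 (0.12) and LEP (0.05) sit below it.

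EIN3 (AT3G20770) encodes the transcription factor on which ethylene signalling converges. It read 2.81 with iron and 5.74 without, a raw log2 difference of 1.03. The trend at its brightness was 0.61, which leaves a trend-adjusted difference of 0.43, or 1.34-fold. The robust SD of the trend-adjusted differences among the 499 probe sets nearest in brightness was 0.24. This local SD measures how genes differ, not how replicates differ. EIN3 lay 1.77 such SDs above the trend. Of those 499 probe sets, 31 had a larger difference than EIN3, and their 5th to 95th percentiles ran from 0.20 to 1.08, an interval that includes EIN3.

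Over all probe sets past the filter, EIN3 ranked 209 of 11872 by raw difference and 353 of 11872 by trend-adjusted difference. By raw difference it was the only member at least 1.5-fold higher, a size reached by 24.1% of all probe sets past the filter, and at least 2-fold higher, which 2.07% reached. No member was 1.5-fold lower, against 0.295% of those probe sets. By trend-adjusted difference, the 3 members all stayed within 1.5-fold, a size exceeded upward by 1.09% and downward by 1.48% of the probe sets past the filter. A trend-adjusted difference at least as large as that of EIN3 was found at 2.97% of them.

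In the authors' deposited table, where every probe set has a q value for the contrast of the conditions, 44.5% of those past the filter were under 0.05, and 21.5% had such a q and were also 1.5-fold higher by raw difference. EIN3 was the 1 member of 3 in either count. The q value of EIN3 in the authors' deposited table was 7.06e-06, the 82nd smallest of the 11872. The authors' deposited table placed 71.7% of the 499 probe sets nearest to EIN3 in brightness under 0.05, so a q below that threshold was the usual outcome at this brightness. Small q values were also common below the filter. Over all plant probe sets the median q in that table was 0.0211. AGL42, a marker gene below the filter, had a q of 5.09e-05 there, as 97.6% of its 499 neighbours in brightness were under 0.05. A difference at least as large as that of EIN3 together with a q at least as small in the authors' deposited table was seen at 18 probe sets, EIN3 included. No q value belongs to the trend-adjusted differences.

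RTE1 (AT2G26070) encodes a membrane protein that acts on the ethylene receptor ETR1 and promotes its signalling, and so holds ethylene responses back. It read 2.74 with iron and 3.94 without, a raw log2 difference of 0.52 and a trend-adjusted one of -0.06 (local SD 0.22). This places RTE1 slightly below the trend, with 330 of its 499 neighbours in brightness at a larger difference. The authors' deposited table listed RTE1 with a q of 0.0910, while 66.1% of those neighbours were under 0.05 there. RTE1 and EIN3 are read by probe sets of similar brightness and so came under nearly the same trend. The log2 difference of EIN3 exceeded that of RTE1 by 0.51 raw and by 0.49 trend-adjusted.

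RTH, the homologue of RTE1, is outside the rule because its symbol carries no number, and it was added after its values were seen. RTH read 2.98 with iron and 4.68 without, a raw log2 difference of 0.65 and a trend-adjusted one of 0.05, and the authors' deposited table listed it with a q of 0.00163. Of the 499 neighbours of RTH in brightness, 69.9% were under 0.05 there. RTE1 and RTH were thus both higher by raw difference, and both lay within the local SD of the trend. Of the 26 other genes listed for ethylene synthesis and signalling, 1 could be matched by name to a single-gene probe set. This was ETP2, which encodes an F-box protein that marks EIN2 for degradation. ETP2 read 0.871 with iron and 0.761 without, a raw difference of -0.20 and a trend-adjusted one of -0.18, and the authors' deposited table listed it with a q of 0.0556. It passed the filter only through the array with iron, so its size depends on the background level.

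PUCHI (AT5G18560) encodes an AP2/ERF transcription factor that acts in lateral root primordia, which arise from pericycle cells, and limits cell division at their flanks. It read 1.37 with iron and 1.82 without, a raw log2 difference of 0.41 and a trend-adjusted one of 0.02 (local SD 0.20). PUCHI lay in the middle of its surroundings, with 248 of its 499 neighbours in brightness at a larger difference. The authors' deposited table listed PUCHI with a q of 0.0985, and 47.5% of those neighbours were under 0.05 there. Of 12 listed pericycle and stele markers, 2 could be matched by name to a single-gene probe set. LBD16, a transcription factor of lateral root initiation, had a raw difference of 0.50 and a trend-adjusted one of 0.04, near those of PUCHI. LBD29, the other, read 0.706 with iron and 0.628 without and was below the filter.

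**Figure D2:**
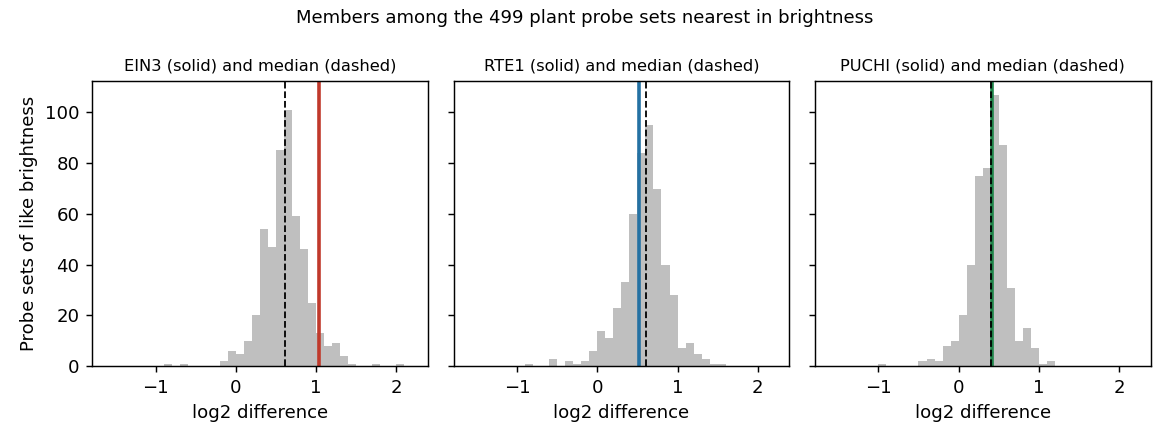
Histograms of the log2 difference (without minus with iron, horizontal axis) of the 499 plant probe sets nearest in brightness to EIN3, RTE1 and PUCHI, with the number of probe sets on the vertical axis, the member as a solid line and the median of its neighbours as a dashed line. EIN3 stands in the upper tail of its neighbours (median 0.62), RTE1 stands just below the median (0.60) and PUCHI on it (0.41).

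Over the 3 members the median raw log2 difference was 0.52, against 0.37 over all probe sets past the filter, and the median trend-adjusted difference was 0.02, against 0.01. All 3 members were higher by raw difference, as were 89.9% of the probe sets past the filter. EIN3 and PUCHI lay above the trend and RTE1 below it. The members ranked EIN3, RTE1, PUCHI by raw difference and EIN3, PUCHI, RTE1 by trend-adjusted difference. RTE1 minus PUCHI came to 0.11 raw and -0.09 trend-adjusted, so their order turned with the measure. Without replicate values, how firm either order is cannot be told.

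The scaling of the pair of arrays decided whether EIN3 passed 1.5-fold. Its log2 difference was 0.67 with the median difference of the probe sets past the filter set to 0, which is still past 1.5-fold. It was 0.51 after linear rescaling of one array onto the other, and 0.42 after quantile normalization, both short of 1.5-fold. EIN3 was the highest of the 3 members under each of these scalings. RTE1 was at 0.15, 0.04 and -0.08 and PUCHI at 0.05, 0.06 and 0.02 under the same scalings in that order, so the sign of RTE1 turned with quantile normalization.

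**Figure D3:**
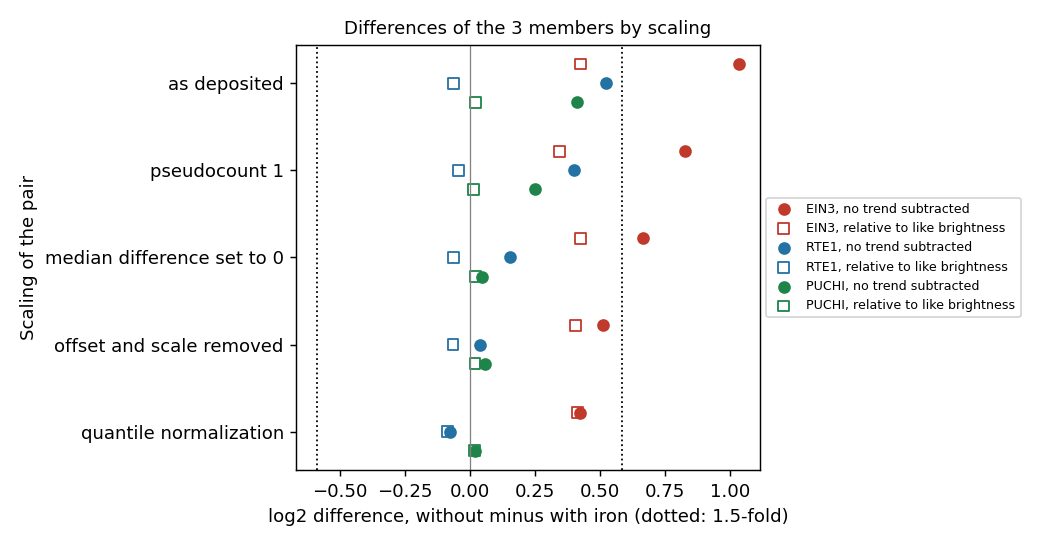
Log2 differences (without minus with iron, horizontal axis) of EIN3, RTE1 and PUCHI under 5 treatments of the pair of arrays (vertical axis), with no trend subtracted (filled circles) and with it subtracted (open squares), with dotted lines at 1.5-fold. EIN3 lies to the right of RTE1 and PUCHI in each, and its circle passes 1.5-fold in the upper 3 treatments only.

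PUCHI can be set beside the other AP2/ERF genes that could be matched to a probe set. The platform's gene table pairs 8730 plant probe sets with no gene, so a gene missing here may still be on the array. Of 71 further names listed for this family, 10 had a single-gene probe set and 5 passed the filter, with medians of 0.18 for the raw log2 difference and 0.05 for the trend-adjusted one, against 0.37 and 0.01 over all probe sets past the filter. All 5 stayed within 1.5-fold, both raw and trend-adjusted. Of all probe sets past the filter, 24.1% were at least 1.5-fold higher and 0.295% lower by raw difference. By trend-adjusted difference these shares were 1.09% and 1.48%, so 5 genes would seldom include one. The values of the 5 spread to both sides of those of PUCHI.

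ORA47, a jasmonate-responsive regulator, read 8.33 with iron and 9.05 without, a raw difference of 0.12 and a trend-adjusted one of -0.49 (local SD 0.26). LEP, a close relative of PUCHI within the family that is known from leaf petiole development, read 2.48 and 2.55, with differences of 0.05 and -0.49 (local SD 0.21). These were the 2 AP2/ERF genes farthest from the trend, 1.41-fold and 1.40-fold lower than it, and their q values in the authors' deposited table were 0.236 and 0.227. LEP and PUCHI, both AP2/ERF genes of the same subgroup, thus lay apart on this pair of arrays, one below the trend and the other on it.

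DEWAX, a repressor of wax synthesis, read 1.18 with iron and 1.73 without, a raw log2 difference of 0.55 and a trend-adjusted one of 0.21. The authors' deposited table listed it with a q of 0.000709, while 44.1% of its 499 neighbours in brightness were under 0.05 there. TINY, a relative of the DREB factors of the drought and cold response, read 1.76 and 2.58, with differences of 0.55 and 0.06, and the authors' deposited table listed it with a q of 0.0462. Of the 499 neighbours of TINY in brightness, 61.9% were under 0.05 there. SMZ, a repressor of flowering, read 0.931 and 1.05, with differences of 0.18 and 0.05. DEWAX was the AP2/ERF gene highest above the trend, and TINY and SMZ lay near it, as PUCHI did.

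The other 5 AP2/ERF genes, SHN3, TINY2, BBM, HRD and SNZ, were below the filter on both arrays. They read 0.635 to 0.855 with iron and 0.486 to 0.759 without. Each was lower without iron, as was usual for dim probe sets, and their trend-adjusted differences ran from -0.15 (SHN3) to 0.05 (BBM). No measure of background was used here, and the filter value is only the median of all plant values. Whether these signals stand above background could not be told, and no change is read from them.

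**Figure D4:**
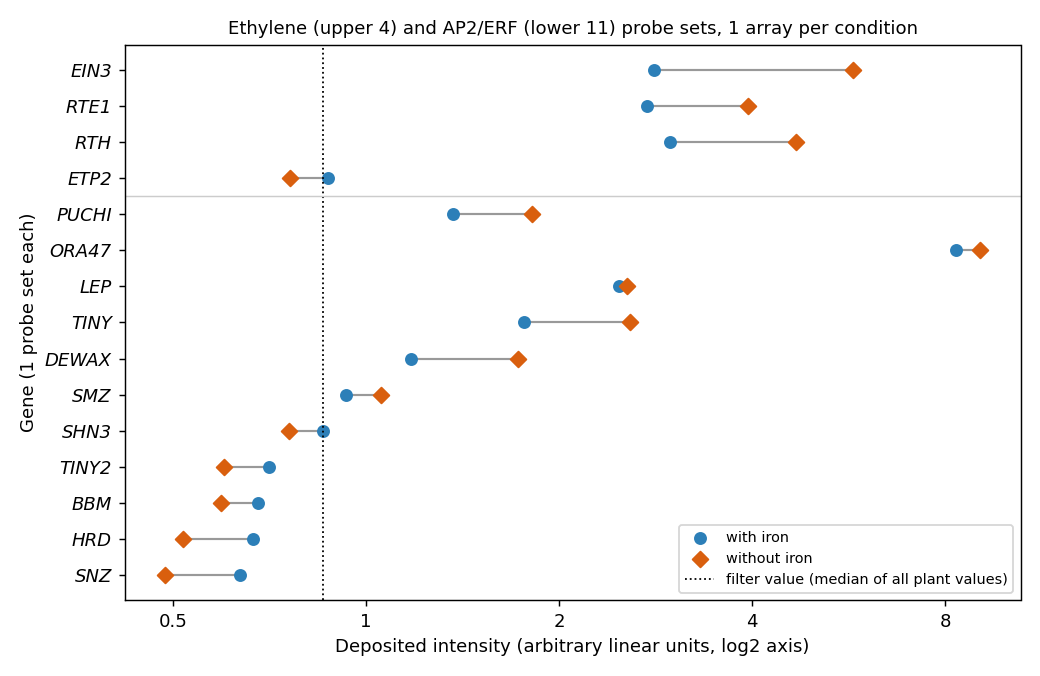
Deposited intensity (horizontal axis, arbitrary linear units on a log2 axis) with iron (circles) and without iron (diamonds) for the ethylene genes EIN3, RTE1, RTH and ETP2 and for PUCHI and 10 other AP2/ERF genes (vertical axis), 1 column, taken as 1 array, per condition. EIN3 has the widest gap (2.81 and 5.74), ORA47 and LEP have narrow gaps, and the genes left of the dotted line at 0.858 on both arrays were below the filter.

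Group VII of the ERF family drives the response to low oxygen, and the genes of that response listed here gave few values. Of 33 listed names 2 were found and 1 passed the filter. PDC2, a pyruvate decarboxylase of fermentation, read 2.74 with iron and 4.53 without, a raw difference of 0.73 and a trend-adjusted one of 0.13, and the authors' deposited table listed it with a q of 0.0102. Of the 499 neighbours of PDC2 in brightness, 67.7% were under 0.05 there. HRA1, a factor that restrains the group VII proteins, read 0.738 and 0.604 and was below the filter.

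Fewer cells of a type and less transcript per cell cannot be told apart in sorted populations such as these. Of 13 root hair and epidermis markers 2 were named, the expansins EXPA7 and EXPA18, and their summed value was 2.06 with iron and 1.62 without, with trend-adjusted differences of -0.47 and -0.36. Both passed the filter only through the array with iron, so the sizes depend on the background level, and the authors' deposited table listed them with q values of 0.143 and 0.157. Of 13 phloem markers OPS was named (0.768 with iron and 0.866 without), with a trend-adjusted difference of 0.19. It passed the filter only through the array without iron, so this size too depends on the background level. Of 13 xylem markers LHW was named (3.82 and 5.66), with a trend-adjusted difference of -0.05. Of 8 markers of the root cap and stem cell niche AGL42 was named (0.631 and 0.507), which was below the filter. None of the 13 cortex and endodermis markers was matched. The part of cell composition in the members' differences was not tested. LBD16 was the 1 pericycle marker past the filter. Both columns hold cells sorted by the same reporter line, as a separate sample for each condition. No other cells were measured, so these values cannot check the label of the sort.

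In the reference gene order, none of the 3 members overlaps another annotated gene, on either strand. Of the 6 protein-coding genes that flank them, 2 had a single-gene probe set. AT5G18550, beside PUCHI, read 1.19 with iron and 1.40 without, a raw difference of 0.24 and a trend-adjusted one of -0.06. AT3G20760, beside EIN3, read 0.621 and 0.523 and was below the filter.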

How the data were processed

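Total RNA of sorted pericycle cells was amplified in successive cycles by Affymetrix's protocol, labelled with biotin and hybridised to a 1-colour array, per the labels' protocols. The authors deposited 1 intensity per probe set and sample, and a table of q-values. How the intensities were summarised, background-corrected and scaled, and which test gave the q-values, is not given in the sources used here. Each column is taken as 1 array, although nothing says whether it summarises several. The number of arrays limits the precision.

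Of 22801 probe sets, 55 were Affymetrix controls. The platform's gene table, which can be dated, paired 13513 plant probe sets with 1 gene, 503 with several and 8730 with none, and 11934 of the 13513 bear only a locus tag as symbol. Names were updated by gene ID through the table of TAIR10.1 (13436 found), and its coordinates served only for gene order.

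Differences are log2 without minus log2 with iron, with no pseudocount, and relative differences subtract a lowess curve (statsmodels 0.14.6, fraction 0.2, all plant probe sets). Local SDs are the median absolute deviation, scaled to an SD, over the probe sets nearest in mean log2 value. Every member is named, and of each gene list the 2 farthest from the trend, while the other AP2/ERF genes and markers are named because the lists were short. Alternatives were quantile normalization, centring, linear rescaling of one array onto the other, a pseudocount of 1, other filters, other symbols, _s_at and _x_at probe sets left out, and a lowess fraction of 0.4. The steps were run on data simulated from the trend and local SDs fitted here, with added differences larger than the trend-adjusted one of EIN3. That run checks the code only and says nothing on these genes. The symbol PEP was dropped from the cortex list because it names another gene on this array. The members and lists were chosen with earlier results of these data known. No per-sample column was left unused.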

Additional observations from a re-analysis of the deposited data

How the results depend on the processing

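Relative to like brightness, no member passed 1.5-fold in either direction under any alternative listed in the methods. EIN3 stayed between 0.34 (pseudocount 1) and 0.45 (lowess fraction 0.4), PUCHI between 0.01 and 0.04 and RTE1 between -0.09 and -0.04. Centring, the filters and the choice of symbols cannot move these trend-adjusted differences, so only the other alternatives could have done so. As deposited, the count of members at least 1.5-fold higher, 1 in the main setting, was 0 after quantile normalization and 0 after linear rescaling, and the median of the members, 0.52, was 0.019, 0.059 and, with the median difference set to 0, 0.15. The share of all probe sets past the filter that were 1.5-fold higher was 24.1% as deposited, 1.15%, 1.36% and 2.87% under these 3 in the same order. These shares cover the probe sets past the filter, and over all plant probe sets the median difference as deposited was -0.0023. The rescaling had an offset of -0.35 units and a slope of 1.52. Raising the filter to 1.66, removing it, leaving out _s_at and _x_at probe sets or taking reference-table symbols changed no count of members. All 3 passed each filter, PUCHI at 1.66 only through the array without iron (1.82, against 1.37 with iron). Filter and symbols do not enter the calculation of a difference, so they could only have changed which genes were counted. No replicate could be left out, and no paired analysis was possible because each condition had 1 sample and the groups share 1 replicate number. ETP2, alone in its list, was run with and without the filter only, which cannot move the difference of a single gene, and not under the other scalings.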
